A study of Homo sapiens with 12 samples.

Results

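The zinc finger genes of human chromosome 19 are the protein-coding genes on that chromosome whose symbol is ZNF, a number and at most 1 further letter. The rule gave 246 genes in GENCODE release 29 on GRCh38, of which 244 had a row among the 57773 gene IDs of the deposited table, and the other 2 (ZNF8 and ZNF229) were not analysed here. Membership rested on symbol and position alone and not on any measured value. RNA came from HEK293, a human embryonic kidney cell line, and from the extracellular vesicles (EVs) that the cells released. All cells had been transfected by lipofection for 48 h with the 4EC1 vectors, named after the elements eGFP, EIF4E, YTHDF1, CD9 and GBP1. The 4 groups, with 3 libraries each, were EVs of hypoxic cells, EVs of normoxic cells, cells after 24 h in a hypoxia chamber and cells in normoxia. The series asks whether vesicle RNA can stand in for the RNA of living cells, so each member was compared between EVs and cells and between hypoxia and normoxia in both. Whether the 3 libraries of a group came from separate cultures is not stated, so the p-values reflect only the spread between these libraries, which may be technical.

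C2H2 zinc finger proteins bind DNA through short repeated fingers, each held by a zinc ion between a pair of cysteines and a pair of histidines, and a run of fingers reads a longer site. Most of the family on chromosome 19 also carries a KRAB box at the amino end. KRAB binds TRIM28 (KAP1), a scaffold that brings in the histone methyltransferase SETDB1 and the HP1 proteins CBX1, CBX3 and CBX5, and in this way many KRAB zinc finger proteins silence transposable elements. The genes lie in tandem clusters that grew by duplication, so neighbours often resemble each other.

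Of the 244 translated coding sequences, 243 held at least 1 finger match, with a median of 12 fingers and a maximum of 36 in ZNF208. A KRAB A box, counted where at least 10 of 15 conserved positions matched, was found in 207 members and not in 37. Positions fell into 7 clusters of at least 8 members, split where neighbouring starts lay over 1 Mb apart, which together held 223 members and left 21 outside. Counted from the p to the q arm, cluster 1 held 15 members, cluster 2 25, cluster 3 (19668796 to 24129961, with ZNF91 and ZNF93) 37, cluster 4 26, cluster 5 23, cluster 6 (51571298 to 53580269, with ZNF331) 39 and cluster 7 (55476332 to 58481230, with ZNF587) 58. In 24 members the protein was at least 85% identical to that of another member, up to 98.1% for ZNF417 and ZNF587, and reads of such pairs may have been split by the counting. Exonic bases were shared with another gene in 135 members, and with a gene on the opposite strand in 78. The sources used here do not give whether counting used strand, so values of overlapping genes are uncertain.

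Promoter sequences are shown for the members on which the hypoxia results turn, because induced genes of the classical hypoxia response carry the core motif ACGTG, or more loosely GCGTG, to which hypoxia-inducible factors bind. The set was chosen after values were seen: ZNF331 and ZNF160 had 2 of the best supported increases in hypoxic cells, ZNF841 was higher in hypoxic cells and lower in hypoxia EVs, and ZNF234 and ZNF121 had the largest decreases in hypoxic cells. Each window runs from 250 bases before to 50 after the RefSeq start on GRCh38.p14, 5′ to 3′ along the gene's strand. Capitals mark a match to either motif on either strand, so that CACGT and CACGC are the motifs read from the other strand.
ZNF331 (chr19:53520764-53521063, plus strand): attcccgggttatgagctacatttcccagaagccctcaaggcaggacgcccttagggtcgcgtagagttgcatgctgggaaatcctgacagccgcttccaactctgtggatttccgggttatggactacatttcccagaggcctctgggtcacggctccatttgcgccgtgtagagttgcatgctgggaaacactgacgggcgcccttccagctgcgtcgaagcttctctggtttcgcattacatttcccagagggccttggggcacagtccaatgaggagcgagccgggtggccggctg
ZNF160 (chr19:53103373-53103672, minus strand): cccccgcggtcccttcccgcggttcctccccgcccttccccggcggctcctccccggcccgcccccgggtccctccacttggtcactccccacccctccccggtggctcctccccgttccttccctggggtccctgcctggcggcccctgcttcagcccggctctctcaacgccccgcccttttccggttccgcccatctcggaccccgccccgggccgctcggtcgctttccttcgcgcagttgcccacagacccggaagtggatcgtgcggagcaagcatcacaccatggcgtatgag
ZNF841 (chr19:52095716-52096015, minus strand): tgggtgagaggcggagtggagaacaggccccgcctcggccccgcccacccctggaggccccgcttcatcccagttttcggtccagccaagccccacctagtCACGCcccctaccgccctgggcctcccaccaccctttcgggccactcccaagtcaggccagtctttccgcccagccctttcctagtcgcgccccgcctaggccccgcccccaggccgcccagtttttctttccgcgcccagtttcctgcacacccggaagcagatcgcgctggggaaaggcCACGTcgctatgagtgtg
ZNF234 (chr19:44141304-44141603, plus strand): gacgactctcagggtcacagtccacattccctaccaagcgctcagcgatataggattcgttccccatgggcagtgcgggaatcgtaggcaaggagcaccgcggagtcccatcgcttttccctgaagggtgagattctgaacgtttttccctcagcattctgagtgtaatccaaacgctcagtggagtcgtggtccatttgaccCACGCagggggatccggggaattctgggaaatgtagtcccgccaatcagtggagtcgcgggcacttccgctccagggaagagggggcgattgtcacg
ZNF121 (chr19:9584455-9584754, minus strand): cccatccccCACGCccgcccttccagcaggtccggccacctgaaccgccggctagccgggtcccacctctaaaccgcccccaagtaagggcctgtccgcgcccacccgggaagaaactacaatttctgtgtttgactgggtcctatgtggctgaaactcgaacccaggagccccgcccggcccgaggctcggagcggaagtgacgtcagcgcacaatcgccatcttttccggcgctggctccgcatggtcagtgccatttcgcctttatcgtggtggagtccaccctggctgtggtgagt

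The windows of ZNF331 and ZNF160 held neither motif, and those of ZNF234 and ZNF121 held GCGTG once each. ACGTG was present in 18.3% of the 213 member promoters in the RefSeq table, against 23.7% of all 15843 protein-coding promoters. Either motif was present in 61.0% of member promoters and in 55.9% of all promoters. Among members that rose in hypoxic cells ACGTG was found in 3 of 23 windows (ZNF808, ZNF536 and ZNF841), and among those that fell in 4 of 9 (ZNF507, ZNF296, ZNF561 and ZNF587B). A match is a description of letters, and its absence says only that these letters were not in the window.

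Cell libraries held 18059381 to 23400813 reads, hypoxia EV libraries 3259453 to 6129782 and normoxia EV libraries 5266244 to 7001767. Hypoxia was visible in cells: all 6 tested genes of a 7-gene check list rose, among them PDK1, which limits pyruvate entry into mitochondria (log2 fold change 1.71), and VEGFA, an angiogenic growth factor (1.10), whereas none of the 7 passed the test in EVs. Reads on 354 olfactory receptor genes, most of which are little used outside the nose, served as a measure of background. Their density was 0.957 to 1.1 RPKM (reads per kb of exon, scaled to the reads of the library) in hypoxia EVs, 0.104 to 0.481 in normoxia EVs, 0.0625 to 0.0879 in hypoxia cells and 0.0339 to 0.0546 in normoxia cells. Of the fixed HEK293 markers, 7 of 8 could be looked up, and all 7 had a mean of at least 10 in every group. Blood markers summed to 313 to 402 units in hypoxia EVs, 171 to 301 in normoxia EVs, 43.8 to 65.0 in hypoxia cells and 52.9 to 60.9 in normoxia cells, and liver and plasma markers to 321 to 479, 47.6 to 258, 16.5 to 57.9 and 20.9 to 32.7 in the same groups. None of these markers was at 0 in every library of a group.

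The members were low-abundance RNAs. Per length, the median member had 2.21 RPKM in hypoxia EVs, 1.66 in normoxia EVs, 2.17 in hypoxia cells and 1.82 in normoxia cells, and the 256 zinc finger genes of other chromosomes had medians of 4.25, 3.17, 4.61 and 4.26. All 244 members together took 0.454% ± 0.0299 of the reads in hypoxia EVs and 0.412% ± 0.0211 in normoxia EVs, and 0.419% ± 0.00734 in hypoxia cells and 0.380% ± 0.00686 in normoxia cells (SD, n = 3 each). In cells the 3 hypoxia libraries (0.428%, 0.416% and 0.415%) all lay above the 3 normoxia libraries (0.379%, 0.388% and 0.375%), and this was carried by members with a KRAB box, at 0.318%, 0.306% and 0.305% in hypoxia against 0.269%, 0.279% and 0.267% in normoxia. Members without one had 0.110% in each hypoxia library and 0.110%, 0.109% and 0.107% in normoxia. The zinc finger genes of other chromosomes were also higher in hypoxia cells (1.01%, 1.02% and 1.00%) than in normoxia cells (0.978%, 0.984% and 0.950%). The other protein-coding genes of chromosome 19 overlapped, with 5.06%, 5.08% and 5.03% in hypoxia cells and 5.13%, 4.93% and 5.03% in normoxia cells.

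ZNF146, a protein made almost wholly of fingers, had the highest level per length in every group, at 47.6 RPKM in hypoxia EVs, 51.4 in normoxia EVs, 55.7 in hypoxia cells and 56.9 in normoxia cells. ZNF460 (25.6 RPKM), ZNF317 (19.6), ZNF121 (19.4) and ZNF724 (15.6) followed in normoxia cells. The ranges of ZNF317 (19.1 to 20.3 RPKM) and ZNF121 (18.9 to 20.2) overlapped, so their order is not fixed, and that of ZNF724 (14.5 to 16.3) overlapped that of ZNF581 below it, which reached 15.1. The ranges of ZNF146 and ZNF460 were apart from their neighbours. The repressors of young transposable elements differed widely. ZNF91, which silences SVA and LINE-1 elements, had 4.51 RPKM in hypoxia cells and 3.89 in normoxia cells, whereas ZNF93, its LINE-1 binding relative in the same cluster, had 0.0728 and 0.0172, within and below the range of the olfactory receptor density in those groups.

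In hypoxic cells more members rose than fell. In bulk RNA, fewer cells with a transcript and less of it per cell cannot be told apart. Of 205 members tested, 25 rose and 9 fell, whereas over all 17260 genes tested 8.01% rose and 22.4% fell (limma, adjusted p under 0.05). The median log2 fold change of the members was 0.08, against −0.07 over all genes, −0.09 over protein-coding genes and −0.04 over the 231 zinc finger genes of other chromosomes, of which 18 rose and 33 fell. Low level went with the same direction: protein-coding genes with a mean of 10 to 200 had a median of 0.07, with 575 of 5868 higher and 408 lower, and members in that range a median of 0.15, with 17 of 136 higher and 3 lower. With libraries scaled to equal totals all genes shifted up, to a median of 0.06, and 13.3% rose and 11.8% fell. The members then had 43 higher and 3 lower, with a median of 0.20. On the recovered reads edgeR called 36 members higher and 5 lower, beside 1891 and 2606 of all genes.

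**Figure D1:**
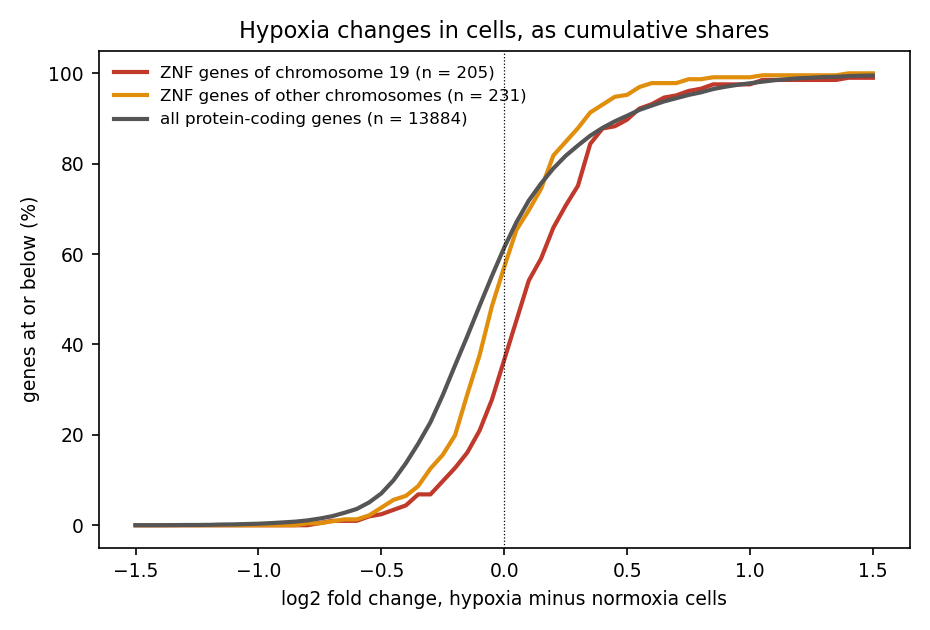
The cumulative share of genes (vertical axis, percent) at or below each log2 fold change between hypoxia and normoxia cells (horizontal axis) is drawn for the members, the zinc finger genes of other chromosomes and all protein-coding genes. At a log2 fold change of 0 or below lay 36.6% of the members, 57.1% of the zinc finger genes of other chromosomes and 61.4% of protein-coding genes. At 0.4 the members (87.8%) and protein-coding genes (87.9%) met. At 0.6 they had 93.2% and 92.9%, and the zinc finger genes of other chromosomes 97.8%.

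The clearest increase was that of ZNF331 in cluster 6, an imprinted gene. Its values were 239, 213 and 212 units in hypoxia cells and 91.1, 110.2 and 58.2 units in normoxia cells, where a unit is the deposited normalized read. Hypoxia values did not overlap those of normoxia, and the log2 fold change was 1.39 ± 0.17 (SE, adjusted p = 4.2e-10). ZNF160, a neighbour in cluster 6 reported to repress TLR4, had 472, 482 and 443 units in hypoxia cells against 262, 278 and 316 in normoxia cells (log2 fold change 0.71 ± 0.10, adjusted p = 4.26e-08). ZNF611, also of cluster 6, had 229, 227 and 219.8 units in hypoxia cells and 147, 149 and 163 in normoxia cells, a log2 fold change of 0.56 ± 0.13, and it is 89.1% identical to ZNF600. All 3 hypoxia libraries stood above all 3 normoxia libraries for each of these genes.

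ZNF471 of cluster 7 was expressed at a lower level, with 77.9, 84.4 and 69.2 units in hypoxia cells and 38.2, 39.1 and 34.6 in normoxia cells (log2 fold change 1.03 ± 0.24). ZNF536, a large protein without a KRAB box that restrains neuronal differentiation, had 316, 266 and 279 units in hypoxia cells and 202, 228 and 176 in normoxia cells (0.51 ± 0.12). ZNF112 (0.62), ZNF554 (0.57) and ZNF772 (0.51) were the other increases named by the rule, which asks for non-overlapping groups and a mean of 50 or more. The largest fold change belonged to a gene below that level and named after its values were seen: ZNF285 had 43.8, 77.7 and 50.9 units in hypoxia cells and 23.7, 9.37 and 17.8 in normoxia cells (1.75 ± 0.34). All 25 increases were also called under TMM scaling, equal totals, edgeR and DESeq2, and 21 of them with the background subtracted. In every fit without 1 library 8 of them were called (ZNF160, ZNF285, ZNF331, ZNF471, ZNF536, ZNF554, ZNF611 and ZNF772). ZNF43, 1 of the 25, lay at the filter edge (mean 10.7 units over the cell libraries). It passed the filter through its higher hypoxia values, so its increase is given as a description. The number of increases was 16 without hypoxia replicate 2 and likewise without normoxia replicate 1 or 2.

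The largest decrease was that of ZNF234 in cluster 5, with 122, 137 and 103 units in hypoxia cells and 199.8, 189.6 and 209 in normoxia cells (log2 fold change −0.73 ± 0.15, adjusted p = 5.41e-05). ZNF121, reported to bind MYC, had 1099.6, 1077 and 1002 units in hypoxia cells and 1454, 1567 and 1553 in normoxia cells (−0.53 ± 0.07, adjusted p = 3.16e-09). ZNF561, its neighbour in cluster 1, had 314, 309 and 303 units in hypoxia cells and 378, 463 and 433 in normoxia cells (−0.46 ± 0.10). These 3 genes kept the call under TMM, equal totals, edgeR and DESeq2. ZNF507, ZNF587B, ZNF296, ZNF222, ZNF708 and ZNF146 (−0.48 to −0.16) lost it with equal totals.

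**Figure D2:**
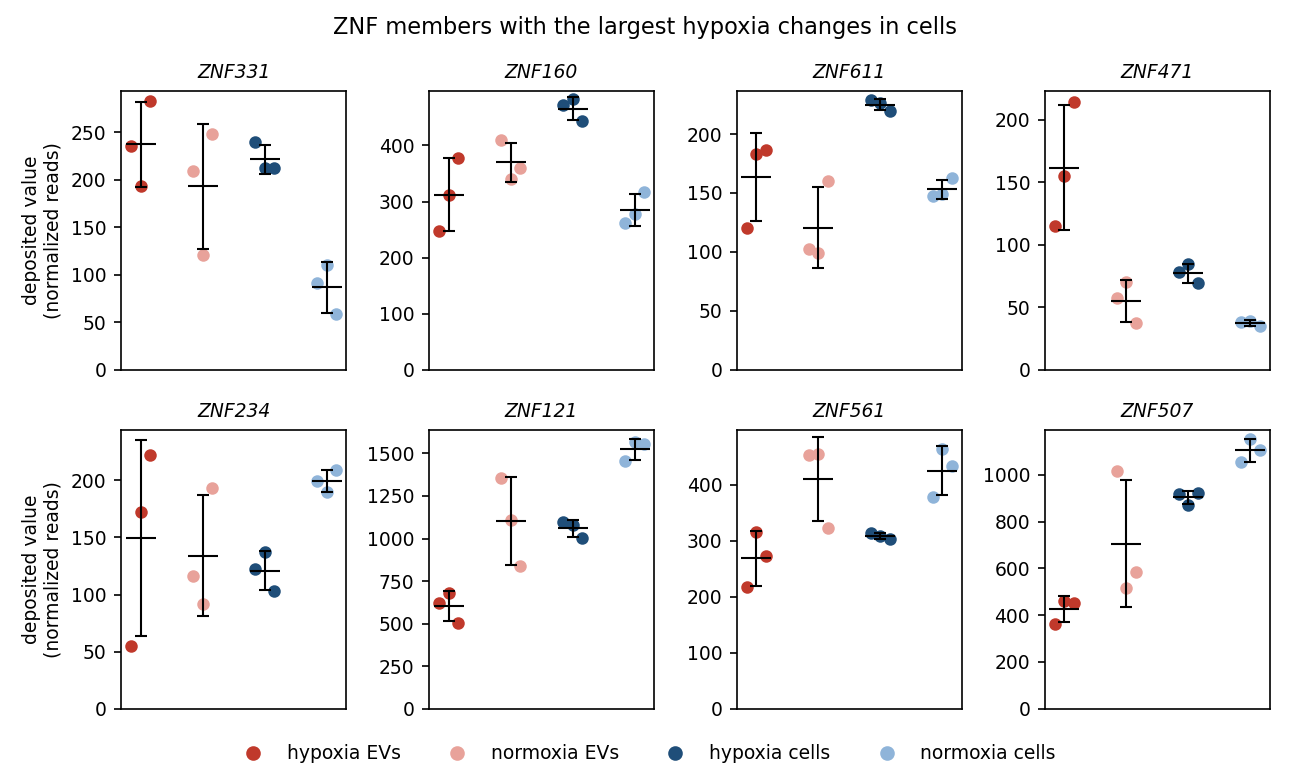
Deposited values (vertical axes, normalized reads, starting at 0) are shown for 8 members in each library as points, with the group mean and SD (n = 3), in hypoxia EVs, normoxia EVs, hypoxia cells and normoxia cells from left to right. In cells the upper 4 genes had all hypoxia points above the normoxia points, and the lower 4 had them below, while in EVs the points of ZNF331, ZNF160, ZNF611 and ZNF234 overlapped between hypoxia and normoxia.

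Most members with known roles in transposon or gene repression did not pass the test in hypoxic cells. ZNF91 had log2 fold change 0.09 (adjusted p = 0.518), ZNF274, which binds the 3′ ends of other zinc finger genes, −0.09 (0.455), ZNF417 and ZNF587, which act on HERV-K elements, 0.08 (0.747) and −0.28 (0.0501), ZNF649 0.12 (0.480) and ZNF568, whose mouse relative represses a placental Igf2 promoter, 0.36 (0.0932). ZNF224, a repressor of aldolase A, had 0.28 (0.626), and ZNF350 (ZBRK1), a partner of BRCA1, 0.16 (0.464). The intervals are wide for low genes, with an SE of 0.37 for ZNF224 and of 0.06 for ZNF146. ZNF93 and ZNF558 were among the 39 members below a mean of 10 in cells and were not tested there.

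By structure, 21 of 172 KRAB members rose and 5 fell (median 0.09), beside 8.01% and 22.4% of all genes. Of 33 members without the box 4 rose and 4 fell (median 0.04). By position, increases were found in 6 of the 7 clusters and decreases in 5. Cluster 6 had 5 increases and no decrease among 31 tested (limma, 7 increases and 0 decreases at unadjusted p under 0.05), cluster 1 had 2 decreases and no increase among 12 (0 increases and 4 decreases unadjusted), and medians ran from −0.09 in cluster 5 to 0.20 in cluster 2. The differences between these classes were not tested.

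**Figure D3:**
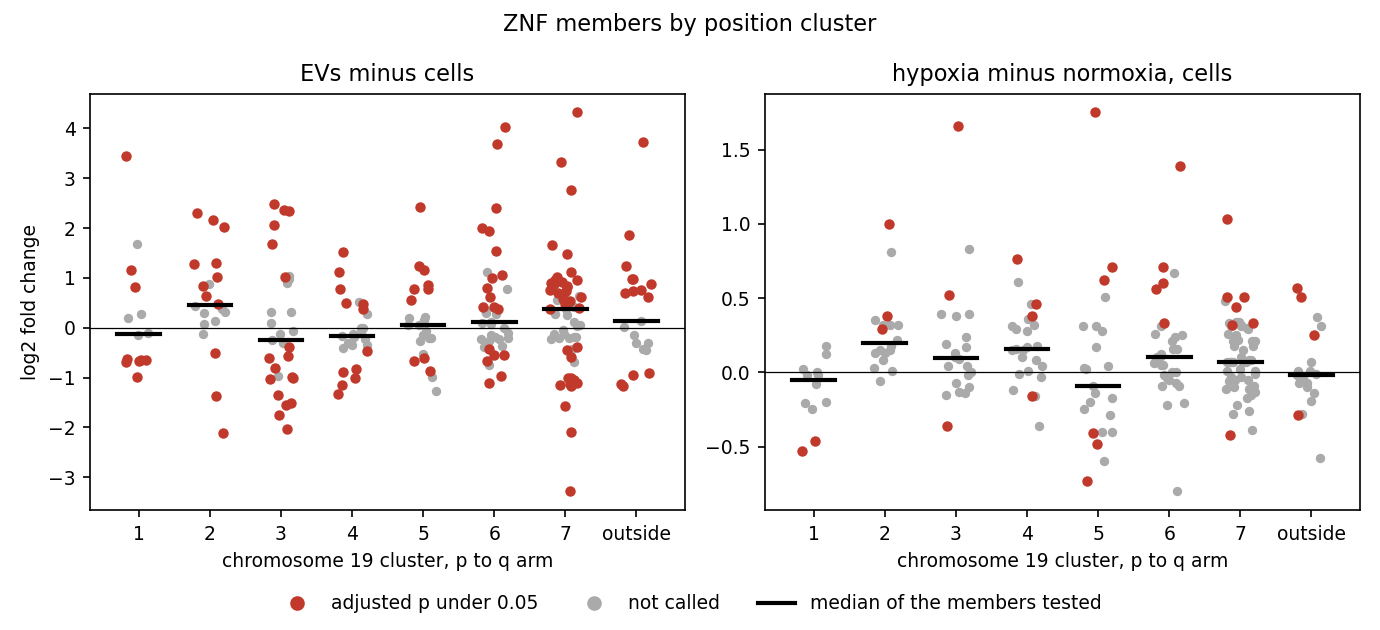
Log2 fold changes (vertical axes) of the members tested are shown by position cluster (horizontal axes, p to q arm) for EVs minus cells on the left and hypoxia minus normoxia cells on the right, with called members in red, the others in grey and cluster medians as bars. Cluster 3 had the lowest median between EVs and cells (−0.25) and cluster 2 the highest (0.46).

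Among the partners of KRAB zinc finger proteins more genes fell than rose in hypoxic cells. Of 31 genes of the corepressor machinery 2 rose and 18 fell, with a median log2 fold change of −0.27, beside 8.01% and 22.4% of all genes. With equal totals 3 rose and 14 fell, beside 13.3% and 11.8% of all genes. Most of these genes were well expressed, where small changes pass the test more easily. Genes of like level were not set beside them, here or in EVs. TRIM28 averaged 3568 units in hypoxia cells and 4966 in normoxia cells (−0.48 ± 0.05, adjusted p = 6.68e-11), SETDB1 674 and 815 (−0.27 ± 0.08) and ATF7IP, which stabilizes SETDB1, 1193 and 1699 (−0.51 ± 0.07). The 2 that rose were CBX5, which encodes HP1 alpha (0.68 ± 0.06), and CHD3, a nucleosome remodeller of the NuRD complex (0.34 ± 0.06).

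In EVs the comparison of hypoxia with normoxia depended on the scaling. Of 232 members tested, 4 were higher and 15 lower, beside 5.68% higher and 6.62% lower of all 27904 genes. TMM gave 4 higher and 36 lower members (4.18% and 11.5% of all genes), equal totals 16 higher and 0 lower (15.1% and 0.677%; 42 and 3 members at unadjusted p under 0.05 in limma), and subtraction of the olfactory receptor density 0 and 0 (0% and 0% of all genes; 2 and 85 members unadjusted in limma). The member median was −0.30 as deposited and 0.26 with equal totals, where all genes had 0.60 and 1.13. The share of a member's value that the olfactory receptor density would give had a median over members of 46.5% in hypoxia EVs, 14.3% in normoxia EVs, 3.27% in hypoxia cells and 2.57% in normoxia cells. Its part in the EV comparisons beyond this subtraction was not tested. No call was kept in every fit without 1 library: leaving out normoxia EV replicate 1, 2 or 3 gave 3 and 0, 0 and 0, and 17 and 51 members higher and lower, and leaving out hypoxia EV replicate 1, 2 or 3 gave 0 and 2, 0 and 0, and 0 and 0 (limma, 8 to 28 higher and 25 to 66 lower unadjusted).

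The 4 higher members were ZNF471, ZNF578, ZNF814 and ZNF83. ZNF471 had 115, 155 and 214 units in hypoxia EVs and 57.1, 70.3 and 37.1 in normoxia EVs (log2 fold change 1.54 ± 0.45, adjusted p = 0.0330), and was the 1 member called higher in both cells and EVs. ZNF814 had 144, 131 and 189 units in hypoxia EVs and 16.7, 46.8 and 56.7 in normoxia EVs (2.08 ± 0.52), but 2445 of its exonic bases lie opposite exons of ZNF587. ZNF578 had 80.2, 73.1 and 156 units in hypoxia EVs and 4.76, 21.6 and 21.5 in normoxia EVs, and ZNF83 had 96.2, 142 and 126 in hypoxia EVs and 0, 43.2 and 54.7 in normoxia EVs. None of these EV values overlapped between the groups, but none of the 4 calls was kept after subtraction of the olfactory receptor density. That density was 8.39, 8.02 and 9.06 units per kb in hypoxia EVs and 1.47, 2.53 and 4.95 in normoxia EVs. Exonic lengths were 12600 bases for ZNF814, 8028 for ZNF83, 7189 for ZNF578 and 6783 for ZNF471. Over these lengths the density would give a large part of the hypoxia EV values of ZNF814, ZNF83 and ZNF578.

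The lower members in EVs were led by ZNF841, with 94.8, 86.8 and 50.4 units in hypoxia EVs and 269, 309.9 and 131 in normoxia EVs (−1.56 ± 0.40, adjusted p = 0.0243). ZNF829 (−1.24), ZNF761 (−1.14), ZNF296 (−1.08), ZNF567 (−1.08), ZNF724 (−0.98), ZNF865 (−0.96) and ZNF787 (−0.90) followed by the naming rule, and ZNF121 (−0.85) and ZNF146 (−0.68) were also called. ZNF296, a pluripotency-associated regulator, ZNF121 and ZNF146 were lower in hypoxia both in cells and in EVs, whereas ZNF420, ZNF841 and ZNF865 were higher in hypoxia cells and lower in hypoxia EVs. ZNF331 had 235, 193 and 282 units in hypoxia EVs and 209, 121 and 248 in normoxia EVs, values that overlapped (0.34 ± 0.33, adjusted p = 0.441). Of the fixed members, ZNF91 (−0.27), ZNF274 (−0.46), ZNF417 (−0.55), ZNF587 (0.64), ZNF558 (1.60), ZNF568 (0.80), ZNF649 (−0.53), ZNF224 (−1.32), ZNF350 (−0.52) and ZNF93 (1.83) did not pass the test.

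The response to hypoxia in EVs minus that in cells was past the threshold for 9 of 228 members, 1 higher (ZNF814) and 8 lower, beside 0.443% and 1.87% of all genes. With equal totals 1 was higher and 1 lower, beside 1.97% and 0.625%, and in limma none was called when any 1 of the 6 cell libraries was left out (2 to 17 higher and 36 to 74 lower unadjusted over all fits without 1 library). edgeR called 1 higher and 20 lower on all libraries, and DESeq2 2 and 18. The shares of all genes under these 2 methods are not given here, nor are they for the corepressor genes below. The counts are therefore not a comparison with all genes. ZNF841 had the largest negative difference (−1.88 ± 0.41, adjusted p = 0.0247), from 331, 327 and 284 units in hypoxia cells against 252, 244 and 254 in normoxia cells and the EV values above. For ZNF331 the difference was −1.05 ± 0.40 and did not pass the test (adjusted p = 0.147). In EVs 16 of the 31 corepressor genes were lower in hypoxia, TRIM28 among them (−0.89 ± 0.23), beside 6.62% of all genes. With equal totals 3 were lower, beside 0.677% of all genes, and with the background subtracted 0 were by limma (25 unadjusted), whereas edgeR gave 18 and DESeq2 21.

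Between EVs and cells members differed in both directions. Of 228 tested, 78 were higher and 53 lower in EVs, beside 43.1% higher and 31.8% lower of all 24171 genes. The 78 include members that averaged under 10 units in cells, such as ZNF541 and ZNF677, and passed the filter only through their EV values. Their direction was fixed by the filter, which also holds in the counts and medians by structure and cluster. The member median was 0.10, between 0.32 for all genes and −0.06 for protein-coding genes. TMM scaling moved the median of all genes to −0.06 and gave 48 members higher and 94 lower (36% and 39.8% of all genes), and subtraction of the olfactory receptor density gave 36 higher and 97 lower (30.5% and 38.2%). The other protein-coding genes of chromosome 19 had a median of 0.74, and the zinc finger genes of other chromosomes one of −0.08. All 53 lower calls were kept after the subtraction, and 36 of the 78 higher calls were.

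Lower levels in EVs were seen for several well-expressed members. ZNF91 had 94.8, 145 and 199 units in hypoxia EVs and 197, 90.1 and 268 in normoxia EVs, against 468, 499 and 429.5 in hypoxia cells and 371, 487 and 458 in normoxia cells (log2 fold change −1.55 ± 0.22, adjusted p = 3.17e-06). ZNF460 had 409, 332 and 338 units in hypoxia EVs and 535, 584 and 424 in normoxia EVs, against 892, 928 and 892 in hypoxia cells and 934, 985 and 997 in normoxia cells (−1.13 ± 0.11). No EV library of either gene reached the level of any cell library. ZNF587B had the largest decrease (−3.28 ± 0.40), with 13.4, 32.0 and 78.2 units in hypoxia EVs and 47.6, 5.40 and 19.5 in normoxia EVs, against 219.6, 211 and 194 in hypoxia cells and 266, 268 and 305 in normoxia cells. It was followed by ZNF587 (−2.09), ZNF738 (−2.03), ZNF708 (−1.76), ZNF552 (−1.58), ZNF714 (−1.51) and ZNF431 (−1.35). ZNF587B, ZNF587 and ZNF552 have near copies in the family, 87.5% identical for ZNF587B and ZNF552, and ZNF587 overlaps ZNF814. Of the members in this paragraph ZNF714 had no KRAB match.

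Higher levels in EVs were of 2 kinds. Some members were well expressed in cells and higher again in EVs, such as ZNF317, with 1644, 1888 and 2144 units in hypoxia EVs and 3813, 2996 and 2164 in normoxia EVs, against 1054, 1069 and 945 in hypoxia cells and 1039.7, 1034 and 1159.6 in normoxia cells (1.16 ± 0.12, adjusted p = 7.07e-08). ZNF274 (0.69 ± 0.10), ZNF649 (0.99 ± 0.16), ZNF574 (0.97) and ZNF581 (1.02) were of this kind. Other members were low in cells. ZNF544 (1.48) had 0.811 RPKM in hypoxia cells and 0.642 in normoxia cells, and ZNF575 (2.43) had 0.484 and 0.399. ZNF541, which acts in the chromatin of meiotic germ cells, had 131, 129 and 134 units in hypoxia EVs and 47.6, 90.1 and 174 in normoxia EVs, against 5.95, 7.21 and 5.24 in hypoxia cells and 6.04, 12.1 and 9.14 in normoxia cells (3.73 ± 0.36). ZNF541, ZNF677 (3.69), ZNF558 (3.45) and ZNF93 (2.35) averaged under 10 units in cells and passed the filter only through their EV values, so a higher level in EVs was fixed by the filter and is given as a description. After the subtraction their log2 fold changes were 4.05, 2.99, 2.15 and 0.14, and that of ZNF575 was 2.28.

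**Figure D4:**
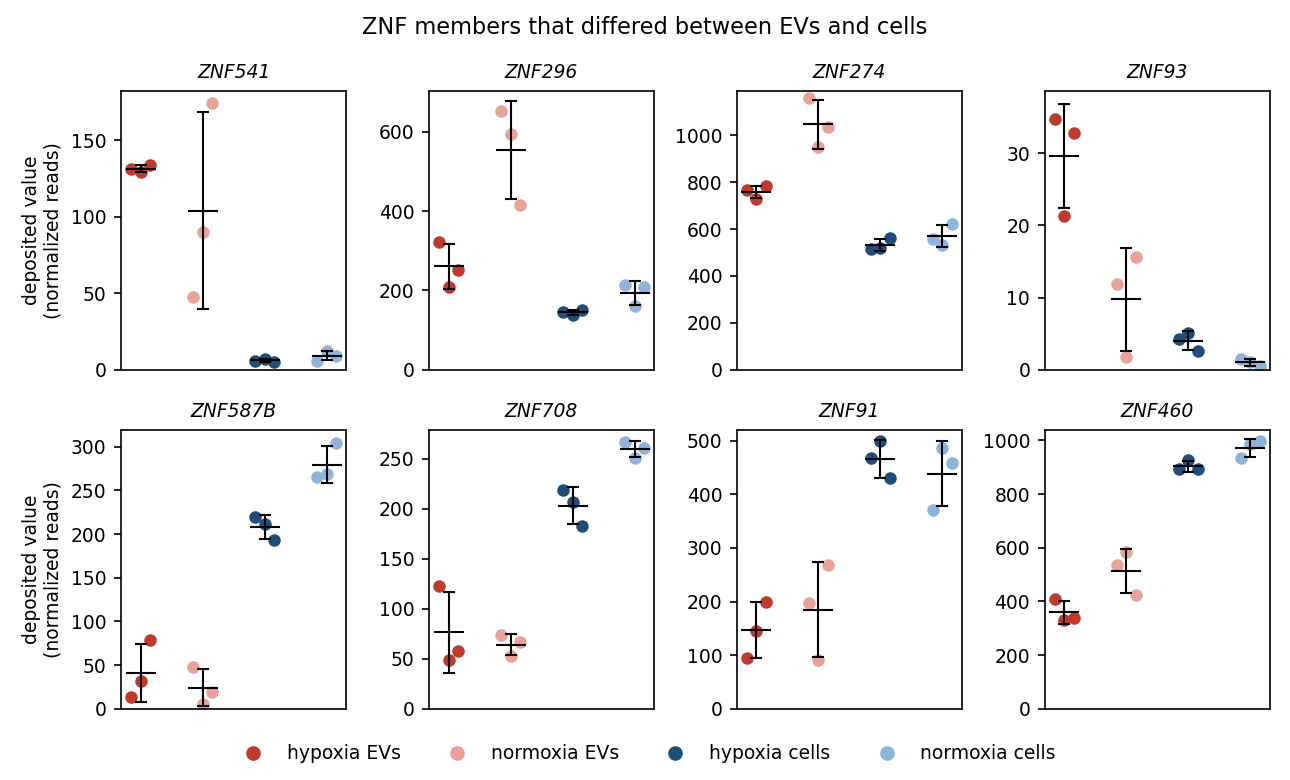
Deposited values (vertical axes, normalized reads, starting at 0) are shown for 8 members in each library as points, with the group mean and SD (n = 3), in hypoxia EVs, normoxia EVs, hypoxia cells and normoxia cells from left to right. ZNF541 and ZNF274 stood above all cell libraries in every EV library, ZNF587B, ZNF708, ZNF91 and ZNF460 below them, and the EV and cell points of ZNF296 and ZNF93 overlapped.

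**Figure D5:**
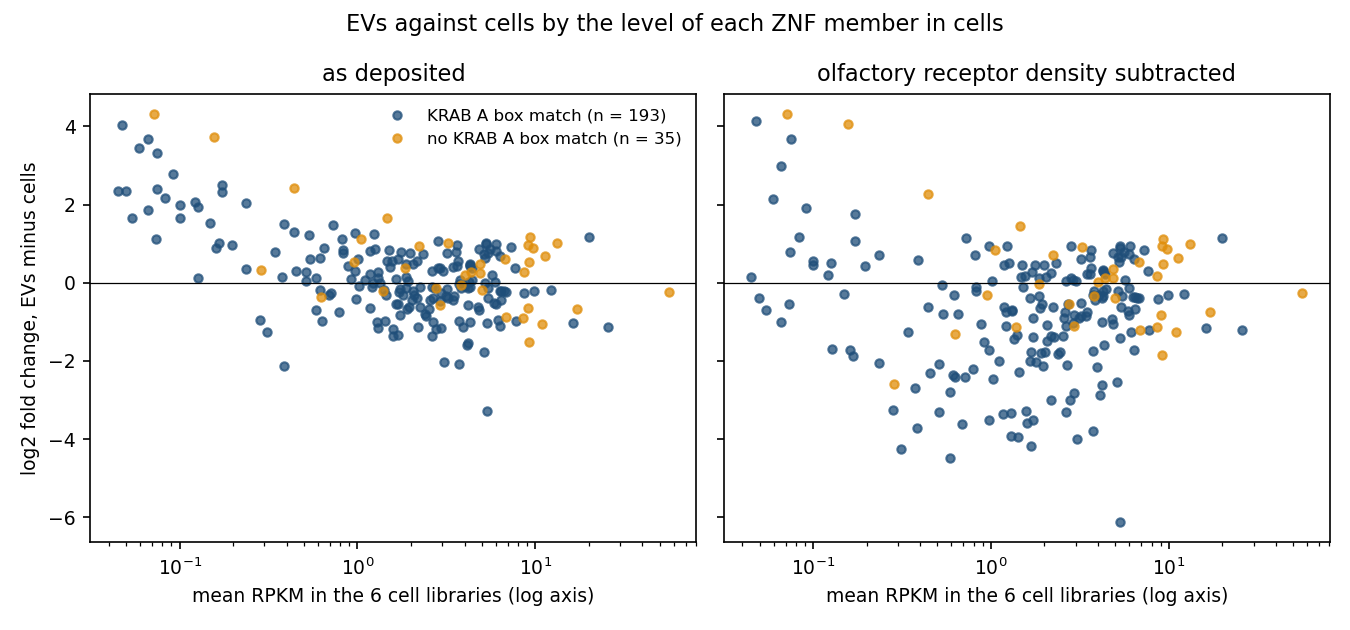
The log2 fold change between EVs and cells (vertical axis) is plotted against each member's mean RPKM in the 6 cell libraries (horizontal log axis), as deposited on the left and after subtraction of the olfactory receptor density on the right, for 193 members with and 35 without a KRAB A box match. The 13 members with under 0.1 RPKM in cells passed the filter only through their EV values, which fixed their place above 0 on the left, and 9 of them lie above 0 on the right.

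The 39 members under the filter in cells had a pooled density of 0.915, 0.848 and 1.13 RPKM in the hypoxia EV libraries and 0.127, 0.228 and 0.558 in the normoxia EV libraries, against 0.0967, 0.114 and 0.0971 in hypoxia cells and 0.0720, 0.0792 and 0.0436 in normoxia cells. These values can be set beside the olfactory receptor densities of the same groups given above. Single members stood higher, such as ZNF541 with 3.42 RPKM in hypoxia EVs. The filter edge fell between ZNF578 (mean 9.48 units over the cell libraries) and ZNF43 (10.7 units). A RefSeq promoter was found for 28 of them, with a median ratio of observed to expected CpG of 0.608, against 0.769 for the 153 members tested in cells and not called. This difference went with position. In cluster 3 the ratio was low both under the filter (0.333 in ZNF626 to 0.627 in ZNF730) and in members tested and not called (0.35 in ZNF737 to 0.723 in ZNF14). Outside cluster 3 the members under the filter ran from 0.31 in ZNF556 to 1.06 in ZNF541.

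Among the other fixed members ZNF350 (0.80) and ZNF331 (0.61, adjusted p = 0.00979) were higher in EVs. The value of ZNF331 was 0.22 with TMM and 0.27 with the background subtracted, and it lost the call in both. ZNF417 (−0.43), ZNF568 (0.00), ZNF224 (−1.27) and ZNF146 (−0.23) did not pass the test. By structure, 63 of 193 KRAB members were higher and 46 lower in EVs (median 0.05), beside 43.1% and 31.8% of all genes. Of 35 members without the box 15 were higher and 7 lower (median 0.32). Cluster 3 had 6 higher and 12 lower members of 29 (median −0.25), and cluster 7 had 24 higher and 13 lower of 58 (median 0.38). Members with a near copy had 4 higher and 10 lower of 23, and those without had 74 higher and 43 lower of 205. Of the corepressor genes 6 were higher and 18 lower in EVs, beside 43.1% and 31.8% of all genes. With TMM 3 were higher and 25 lower, beside 36% and 39.8% of all genes. CBX5 was lowest (−3.74 ± 0.17) and TRIM28 was at −1.23 ± 0.12, while DNMT1, the maintenance DNA methyltransferase, was higher (1.20 ± 0.11). The part of the blood, liver and plasma RNA described above in the member levels was not tested.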

How the data were processed

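RNA was measured by total RNA sequencing (SMARTer Stranded v2, per the labels' protocols) in 12 libraries, 3 in each of 4 groups. Per the submitters' processing notes, hg38 was the build and the tools included DESeq2 1.30.1 and Bowtie 0.12.2. The sources used here do not give the counter, the annotation or the strand setting. The deposited values are a normalized signal. The values themselves show read counts divided by 1 factor per library, since dividing by the value of 1 read gave whole reads for 100% of values within 0.01. No column of per-sample values was left unused. Of 57773 gene IDs, 52338 matched GENCODE 29 on GRCh38, from which symbols, positions, exonic lengths and coding sequences were taken. Promoters came from RefSeq GRCh38.p14.

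Log2 (value + 1) was tested for genes averaging 10 or more over the fitted libraries, across the whole table with limma 3.58.1 (trend, two-sided, Benjamini-Hochberg adjusted, threshold 0.05) in R 4.3.3. Fold changes are on that scale, which understates changes of low genes. A limit of 3 reads is 4.01 to 7.57 units in hypoxia EVs, 5.4 to 7.14 in normoxia EVs, 1.54 to 1.62 in hypoxia cells and 1.44 to 1.65 in normoxia cells, for counting error only. Alternatives were TMM factors, equal totals, olfactory receptor density subtracted, a pseudocount of 5, no filter, a replicate block, each library left out, and edgeR 4.0.16 and DESeq2 1.42.0 on the recovered reads. The subtraction let no value fall below that of a gene without reads. Cell and EV comparisons share libraries. Named members were a fixed list of known roles, the 8 changes in each direction with the largest absolute log2 fold change less 1.96 SE (mean of at least 50, groups not overlapping, except for the difference of responses), and the 5 highest levels in normoxia cells. The members and gene lists were chosen with earlier results of these data known. The tests of hypoxia in cells and in EVs were run on simulated counts with a fixed dispersion. No background differing between libraries was simulated, so that check does not cover the uneven background of the EV libraries. Features, summaries and figures used Python 3.11.15, pandas 2.3.3, numpy 2.4.6, Biopython 1.88 and matplotlib 3.10.9.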

Additional observations from a re-analysis of the deposited data

Results flagged for a closer look

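The test of the difference between the hypoxia response in EVs and that in cells passed the threshold for 9 members (limma interaction term, adjusted over all 24171 genes). ZNF814 had a difference of 2.23 on the log2 scale (adjusted p = 0.0311), and it shares 2445 exonic bases with ZNF587 on the opposite strand. The other 8 had negative differences: ZNF841 −1.88 (adjusted p = 0.0247), ZNF420 −1.40 (0.0466), ZNF829 −1.31 (0.0346), ZNF865 −1.28 (0.0254), ZNF567 −1.26 (0.0263), ZNF761 −1.19 (0.0373), ZNF71 −1.12 (0.0373) and ZNF724 −0.96 (0.0439). ZNF71 had 379, 405 and 277 units in hypoxia EVs and 647, 559 and 493 in normoxia EVs, and 227, 269 and 305 in hypoxia cells and 195, 192 and 200.2 in normoxia cells. ZNF814 and ZNF841 kept the call under TMM, equal totals, edgeR and DESeq2. With the background subtracted ZNF814 lost the call (difference 4.35), whereas all 8 negative calls were kept. The ZNF814 values in normoxia EV replicates 1 and 3 lay below the background expected for its exonic length. The subtraction cut them off there, so 4.35 does not measure the size of the change. None of the 9 kept it in every fit without 1 library.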

How the results depend on the processing

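In hypoxic cells the 25 increases became 43 and the 9 decreases 3 with equal totals, and edgeR and DESeq2 gave 5 decreases each. In EVs the 4 members higher in hypoxia became 16 with equal totals, 0 with the background subtracted and 8 with a pseudocount of 5, and the 15 lower became 36 with TMM, 28 with edgeR, 32 with DESeq2, 0 with equal totals and 0 with the background subtracted. Between EVs and cells, 48 were higher and 94 lower with TMM, and 36 and 97 with the background subtracted. For the difference of responses the 1 higher became 2 with DESeq2, 2 with a pseudocount of 5 and 0 without a filter, and the 8 lower became 22 with TMM, 20 with edgeR, 18 with DESeq2, 15 with the background subtracted, 1 with equal totals and 0 without a filter (8 and 50 unadjusted in limma). Without the construct genes the members took 0.580% of reads in hypoxia EVs, 0.539% in normoxia EVs, 0.451% in hypoxia cells and 0.405% in normoxia cells. With each library left out in turn, counts ran from 16 to 23 higher and 7 to 10 lower in hypoxic cells, 0 to 17 and 0 to 51 in EVs, 69 to 83 and 45 to 62 between EVs and cells, and 0 to 4 and 0 to 41 for the difference. Where no share of all genes under the same setting is given, these counts describe the dependence on processing and not a trait of the members. The cause of this dependence was not tested.

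Deviations from group means had correlations of −0.117 to 0.0614 between same-numbered libraries of different groups, and of −0.0473 to 0.0896 between different-numbered ones. These values gave no sign of pairing but cannot decide whether same-numbered libraries share a culture, which is not stated. With the replicate block 7 members were higher and 26 lower in hypoxia EVs, and 4 were lower for the difference of responses.

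Among the named members, values that changed sign were not past the threshold as first tested. With equal totals these were, in cells, ZNF274 0.03, ZNF460 0.02, ZNF317 0.05 and ZNF724 0.11, in EVs ZNF91 0.30, ZNF274 0.11, ZNF417 0.02, ZNF649 0.03, ZNF350 0.05 and ZNF460 0.06, and for the difference ZNF91 0.08, ZNF274 0.07, ZNF460 0.04 and ZNF121 0.11. In cells ZNF317 and ZNF724 had 0.01 and 0.07 in DESeq2 and 0.01 and 0.06 in edgeR. With the background subtracted ZNF93 had −0.74 (1.83 as deposited) and ZNF587 −1.41 (0.64) in EVs, and for the difference ZNF93 had −1.21, ZNF587 −1.11 and ZNF568 −0.01, with ZNF93 at −0.35 in DESeq2 and −0.34 in edgeR. With 1 library left out the ranges crossed 0 in cells for ZNF91 (−0.02 to 0.17), ZNF417 (−0.11 to 0.26), ZNF350 (−0.03 to 0.31) and ZNF724 (−0.09 to 0.04), in EVs for ZNF91 (−0.71 to 0.07) and for the difference for ZNF93 (−0.27 to 1.01) and ZNF558 (−0.07 to 1.59).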
